A study of Mus musculus with 9 samples.

Results

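The 10 genes described here encode 7 matrix metalloproteinases (MMPs: Mmp2, Mmp3, Mmp7, Mmp9, Mmp11, Mmp13 and Mmp14) and 3 tissue inhibitors of metalloproteinases (TIMPs: Timp1, Timp2 and Timp3). They were taken by symbol from a table of 54453 Ensembl mouse genes, each symbol matching 1 row, and all 10 were among the 16169 genes with enough counts to be tested. mRNA had been sequenced from frozen whole pancreatic tumors of the KPC line, a mouse model of pancreatic ductal adenocarcinoma driven by Cre recombinase in the pancreas. The comparison is between 5 tumors labelled Scrib null (genotype KPF/+CSF/F; tumors null 7, 14, 15, 18 and 23) and 4 labelled Scrib WT (genotype KPF/+C; tumors WT 2, 3, 6 and 9). Both genotypes share the letters K, PF/+ and C, and the labels spell out neither these alleles nor the promoter behind Cre, the age of the mice or whether each tumor came from its own mouse. P-values therefore measure the spread between these tumors.

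MMPs are zinc-dependent endopeptidases that cut collagens, laminins, proteoglycans and many cell-surface and secreted proteins. Most are made as inactive proenzymes and act only after the propeptide is removed, by furin-like convertases, by plasmin or by another MMP. TIMPs bind the active site and block it, and in pancreatic ductal adenocarcinoma both families are known to come from several cell types, among them fibroblasts, macrophages, neutrophils and the tumor epithelium. In mRNA from a whole tumor, fewer cells of a type and less mRNA per cell cannot be told apart.

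Scrib encodes a scaffold protein of apical-basal polarity and its mRNA checks the labels only weakly, since cells without Cre keep the gene. It averaged 60.3 ± 24.6 CPM (estimated counts scaled to the size of the library) in the tumors labelled null (SD, n = 5) and 70.5 ± 21.45 CPM in those labelled WT (SD, n = 4), with overlapping groups (log2 fold change, null over WT, of -0.23, SE 0.31, edgeR adjusted p = 0.712). Directions below are thus between tumors as labelled. Libraries held 19281212 to 27596832 estimated counts in the null group and 10145830 to 26502285 in the WT group. By Xist and Y-linked transcripts null 7, null 18 and WT 3 came from males and the other 6 from females. Null 7, WT 3 and WT 2 often lay at the ends. Null 7 was lowest of all 9 for 5 members, WT 3 was highest for 4 and lowest for 3, and WT 2 was highest for the 4 members Mmp2, Mmp11, Mmp14 and Timp2. Values without null 7, WT 3 or both are given beside several results, and values without WT 2 beside some. Summed CPM of 8 tumor epithelium markers (among them the keratins Krt8, Krt18 and Krt19) ran from 5984 to 10020 in the null group and from 6862 to 9908 in the WT group. None of these 8 markers was at 0 in any tumor, whereas 9 acinar markers summed to 7.1 to 226.9 CPM in the null group and 18.05 to 254 CPM in the WT group.

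Promoters are shown for the 7 members whose highest or lowest level of all 9 tumors was in WT 3: Mmp13, Mmp3, Mmp7 and Timp1, highest there, and Mmp11, Mmp14 and Timp2, lowest there. RefSeq promoters on GRCm38.p6 were matched for 8 of the 10 members (not Mmp2 and Mmp9), and each run below is the 150 bases before the annotated start, 5′ to 3′ on the gene's strand. Capitals mark 3 short motifs searched on both strands with overlaps allowed: TGANTCA, the AP-1 element, TATAAA, the TATA box, and GGGCGG, the GC box (CCGCCC on the other strand).
Mmp13 (chr9:7272364-7272513, plus strand): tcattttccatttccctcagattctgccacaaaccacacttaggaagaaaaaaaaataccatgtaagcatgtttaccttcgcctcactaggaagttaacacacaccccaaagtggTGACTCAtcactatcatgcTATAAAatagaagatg
Mmp3 (chr9:7445672-7445821, plus strand): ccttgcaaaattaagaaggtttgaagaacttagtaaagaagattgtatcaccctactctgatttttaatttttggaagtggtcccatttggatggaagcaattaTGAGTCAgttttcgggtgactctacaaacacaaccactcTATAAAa
Mmp7 (chr9:7691940-7692089, plus strand): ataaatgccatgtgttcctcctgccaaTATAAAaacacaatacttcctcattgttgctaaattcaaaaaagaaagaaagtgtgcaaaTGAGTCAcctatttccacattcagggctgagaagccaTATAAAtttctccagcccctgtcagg
Timp1 (chrX:20870016-20870165, plus strand): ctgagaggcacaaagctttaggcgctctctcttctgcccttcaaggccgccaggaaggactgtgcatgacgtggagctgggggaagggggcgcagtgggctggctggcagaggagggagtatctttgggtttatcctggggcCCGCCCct
Mmp11 (chr10:75932503-75932652, minus strand): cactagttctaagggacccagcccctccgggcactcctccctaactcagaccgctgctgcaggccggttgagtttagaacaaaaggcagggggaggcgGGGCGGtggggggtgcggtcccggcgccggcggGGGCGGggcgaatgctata
Mmp14 (chr14:54431448-54431597, plus strand): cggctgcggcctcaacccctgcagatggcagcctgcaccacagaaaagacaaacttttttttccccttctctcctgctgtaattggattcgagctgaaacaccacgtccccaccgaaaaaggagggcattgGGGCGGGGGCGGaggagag
Timp2 (chr11:118355412-118355561, minus strand): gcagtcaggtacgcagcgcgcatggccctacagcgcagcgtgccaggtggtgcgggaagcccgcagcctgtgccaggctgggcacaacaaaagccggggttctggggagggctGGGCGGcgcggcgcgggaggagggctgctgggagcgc

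Mmp13, Mmp3 and Mmp7 each held 1 AP-1 match, beginning 35, 46 and 63 bases before the start (positions -35, -46 and -63), and none of the GC box. Each also held TATAAA, beginning at -16 in Mmp13, at -7 in Mmp3, and at -123 and -26 in Mmp7. No AP-1 or TATA match was found in these windows of the other members matched, Timp1, Timp2, Timp3, Mmp11 and Mmp14, each of which had 1 or 2 GC boxes. Across 32851 RefSeq promoters the same 150 bases held the AP-1 letters in 4.24%, TATAAA in 7.57% and the GC box in 28.6%. Mmp7 has a second annotated start 251 bases further on, whose window held none of the 3 motifs. A match describes letters only, and no binding was measured.

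The first question of the design was which members differed between the tumors labelled null and those labelled WT. None passed the test over all genes, and the 2 with the smallest p were both lower in the null group: Mmp9, or gelatinase B, which cuts denatured and basement-membrane collagen, and Mmp7, or matrilysin, a small protease made mostly by epithelial cells. The edgeR quasi-likelihood test called 0 of 10 members at a Benjamini-Hochberg adjusted p under 0.05, where 0.0124% of all 16169 genes were called. At an unadjusted p under 0.05 it listed 2 members, both lower, against 10% of all genes listed as lower and 7.64% as higher. DESeq2 called 1 member, Mmp9 (adjusted p = 0.0363), against 2.24% of the 18418 genes with an adjusted p called lower and 1.15% called higher. The limma-voom fit called 0 members, where 0.00618% of all genes were called lower and 0.00618% higher, and for no member were the groups free of overlap (3.49% of all genes did not overlap and were lower, 3.42% higher). All 10 fold changes lay below 0 in the edgeR fit, as did 52.2% of all genes. Their median was -0.49 on the log2 scale, beside -0.03 over all genes, and the signs of Mmp11 and Timp2 turned when only total counts were used for scaling.

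**Figure D1:**
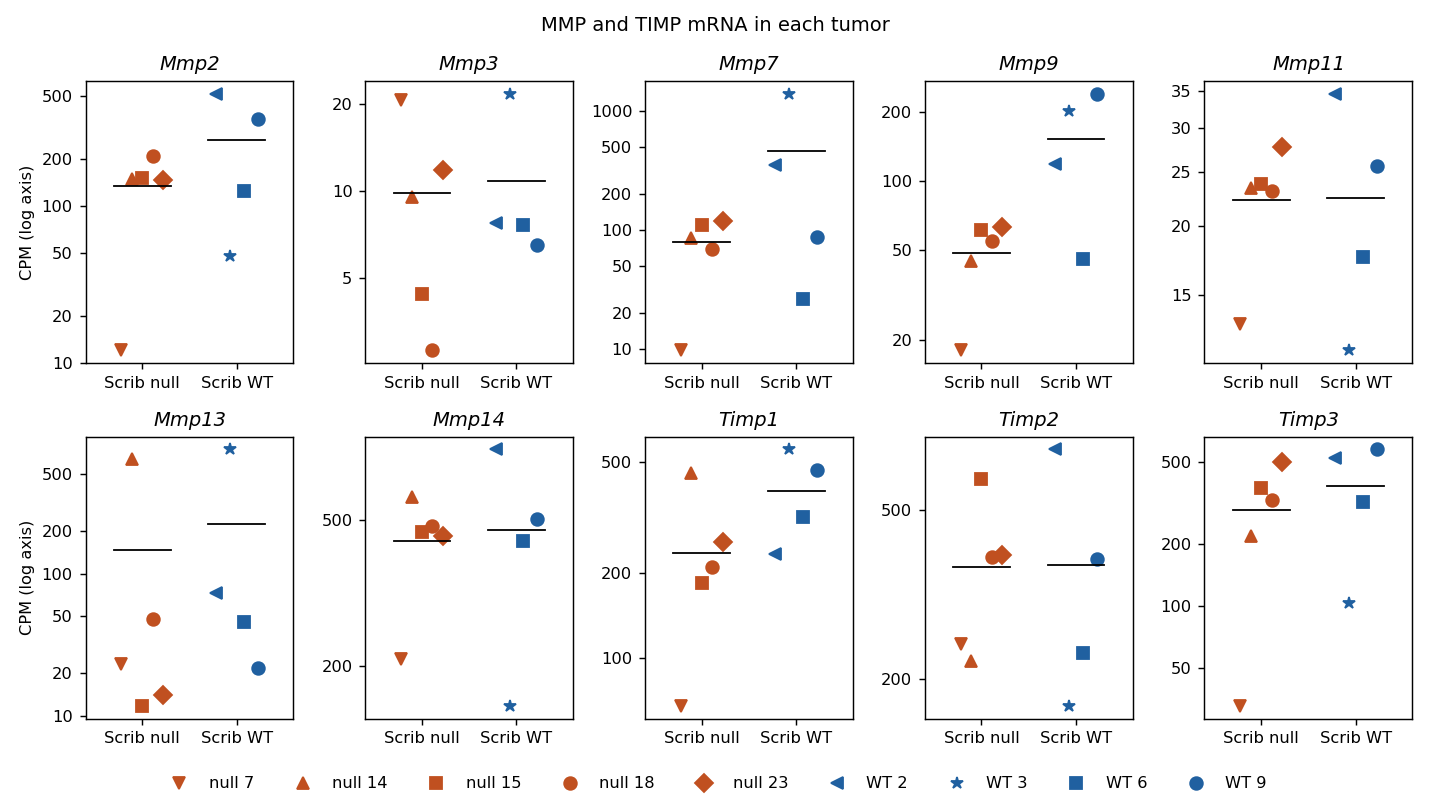
CPM of each member (log axis, scale differs by panel) in the 5 Scrib null tumors (left, orange) and the 4 Scrib WT tumors (right, blue), 1 point per tumor with a symbol of its own and a line at the group mean. The groups overlap in every panel, and null 7 (triangle pointing down) and WT 3 (star) often lie at the ends.

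Mmp9 had 18.1, 44.8, 61.1, 54.7 and 63.0 CPM in null 7, 14, 15, 18 and 23, against 119, 203, 45.7 and 241 CPM in WT 2, 3, 6 and 9. All 5 null tumors lay below 3 of the 4 WT tumors, and WT 6 sat inside the null range. Group means were 48.3 ± 18.3 CPM in the null group and 152 ± 87.4 CPM in the WT group (SD, n = 5 and 4). The log2 fold change was -1.65 (SE 0.47), or 0.318-fold with a 95% confidence interval of 0.154 to 0.655, and did not pass (edgeR adjusted p = 0.208). It stayed below 0 with each tumor left out (-1.96 to -1.34) and was -1.23 without both WT 3 and null 7. The sign also held within each range of the tumor identifiers in the labels. There the difference in mean log2 CPM, null minus WT, was -1.69 for identifiers starting with TB19 (3 and 1 tumors) and -1.16 for the later ones (2 and 3 tumors). It was -0.98 among females (3 and 3 tumors) and -2.69 among males (2 and 1 tumors).

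Markers of myeloid cells, which are known sources of Mmp9, lay in the same direction, as did all fibroblast (9), endothelial (7) and tested T cell (5) markers, so the direction was not particular to myeloid cells. All 9 macrophage markers had log2 fold changes below 0, of which none passed (edgeR smallest adjusted p = 0.201). At an unadjusted edgeR p under 0.05, 6 of these 9 were lower, where 10% of all genes were lower. That number was 2 each for the fibroblast, neutrophil and endothelial markers and 1 for the T cell markers. No macrophage marker was at 0 CPM in any tumor, and the summed level of the 9 was 705 to 1209 CPM in the null group and 1030 to 1995 CPM in the WT group. WT 6, the WT tumor with least Mmp9, also had the lowest macrophage sum of the WT group, and its lowest tumor epithelium sum (6862 CPM). WT 2 had the highest macrophage sum (1995 CPM) but less Mmp9 than WT 3 and WT 9. The 8 neutrophil markers, again all with log2 fold changes below 0, none passing (edgeR smallest adjusted p = 0.208), and detected in every tumor, summed to 85.3 to 594 CPM in the null group and 197 to 2806 CPM in the WT group, the top value being WT 3. The part of any of these cell types in the Mmp9 difference was not tested.

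Mmp7 had 9.74, 85.6, 112, 69.3 and 120.6 CPM in null 7, 14, 15, 18 and 23, against 352, 1407, 26.5 and 87.4 CPM in WT 2, 3, 6 and 9. The WT group spanned a 53.1-fold range, and WT 6 lay below 4 of the 5 null tumors. Its log2 fold change was -2.56 (SE 0.99, edgeR adjusted p = 0.243). Without WT 3 it was -0.93 (adjusted p = 0.643), and without both WT 3 and null 7 it was -0.64 (adjusted p = 0.727). Among females, which leaves out both of those tumors and null 18, the difference in mean log2 CPM was 0.17 with 3 tumors in each group, and among males it was -5.75 (2 and 1 tumors). It was -2.95 for TB19 identifiers and -0.70 for later ones. An antisense transcript, AV064505, shares 123 exonic bases with Mmp7, but was at or below 0.172 CPM in all 9 tumors.

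**Figure D2:**
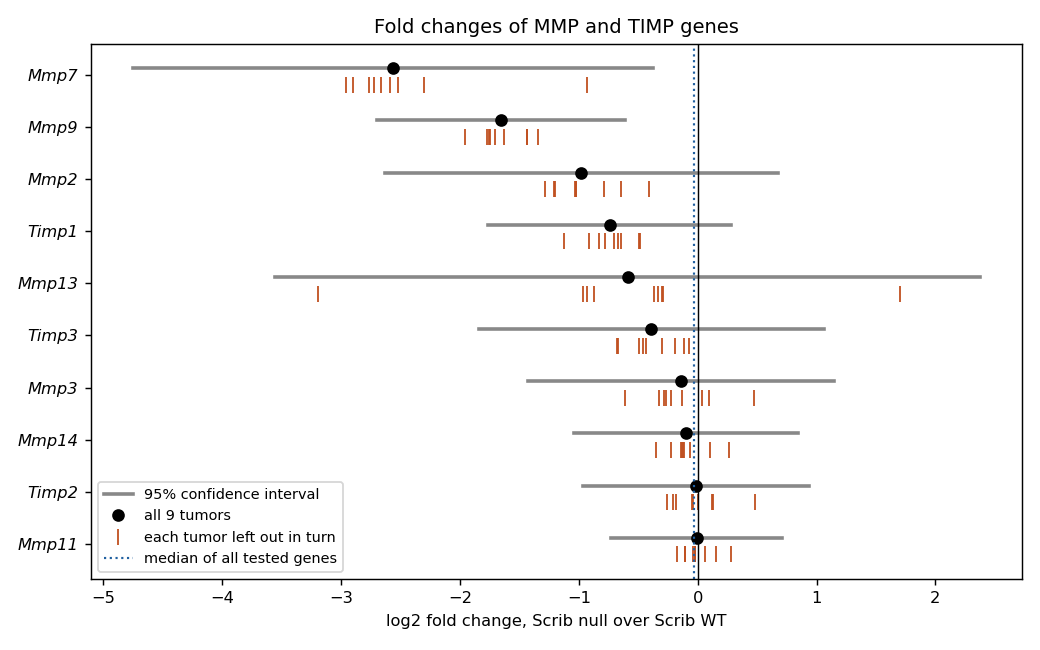
Log2 fold change, Scrib null over Scrib WT, of the 10 members in the edgeR fit (black points) with 95% confidence intervals (grey), and the values with each tumor left out in turn (orange ticks). The intervals of Mmp7 and Mmp9 exclude 0 before adjustment over all genes, and Mmp13 runs from -3.19 to 1.71 as single tumors are left out.

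Mmp13, collagenase 3, which cuts fibrillar collagen, spanned a 63.6-fold range over the 9 tumors. It had 23.1, 640.5, 11.7, 48.0 and 13.9 CPM in null 7, 14, 15, 18 and 23, against 72.7, 746.5, 45.8 and 21.6 CPM in WT 2, 3, 6 and 9. Null 14 and WT 3, 1 tumor of each group, were high and the other 7 lay between 11.7 and 72.7 CPM. The log2 fold change of -0.59 (SE 1.34, edgeR adjusted p = 0.832) had no stable sign, being 1.71 without WT 3 and -3.19 without null 14. DESeq2 gave this gene no adjusted p.

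Mmp3, stromelysin 1, which cuts matrix proteins and activates other proMMPs, was the member with the lowest level per length. It had 20.6, 9.57, 4.415, 2.83 and 11.8 CPM in null 7, 14, 15, 18 and 23, against 7.74, 21.65, 7.62 and 6.51 CPM in WT 2, 3, 6 and 9. The high tumors were null 7 and WT 3, 1 in each group, and the log2 fold change of -0.14 (SE 0.58, edgeR adjusted p = 0.915) turned positive without WT 3 (0.47), null 15 or null 18, and was -0.61 without null 7. Null 7 thus held the second highest Mmp3 level while it held the least Mmp2, Mmp7, Mmp9, Timp1 and Timp3.

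Mmp13, Mmp3 and Mmp7 lie in one cluster of 10 MMP genes on chromosome 9 (7.27 to 7.7 Mb, GRCm38; Mmp13 at 7272514 to 7283331, Mmp3 at 7445822 to 7455975 and Mmp7 at 7692090 to 7699585, all on the plus strand). All 3 were highest in WT 3, and their tested neighbours were highest in other tumors. Mmp12, the macrophage elastase between Mmp13 and Mmp3, was highest in WT 9 at 201 CPM, and WT 3 had its second highest level at 170 CPM. Mmp10, stromelysin 2, a close relative of Mmp3, was highest in WT 2 at 26.1 CPM and had 13.1 CPM in WT 3. Mmp8, the neutrophil collagenase, had 1.31 to 10.75 CPM in the null group, against 12.7, 12.03, 2.425 and 12.3 CPM in WT 2, 3, 6 and 9. Mmp1a, Mmp1b, Mmp20 and Mmp27 did not pass the filter on low counts.

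Mmp14, a membrane-anchored MMP that activates proMMP2 at the cell surface and is itself activated by furin, had similar means in both groups, 438 ± 138 CPM in the null group and 470.2 ± 257 CPM in the WT group (SD, n = 5 and 4). It had 209, 581, 466, 483 and 453 CPM in null 7, 14, 15, 18 and 23, against 781, 156, 438.5 and 505.5 CPM in WT 2, 3, 6 and 9. Null 7 and WT 3 were low in their groups and WT 2 high. The log2 fold change was -0.10 (SE 0.43, edgeR adjusted p = 0.918), with a 95% confidence interval of 0.485-fold to 1.79-fold. It was 0.11 without null 7, -0.35 without WT 3 and 0.26 without WT 2.

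Mmp2, gelatinase A, a product mainly of fibroblasts, had 12.01, 149, 149.9, 208 and 147 CPM in null 7, 14, 15, 18 and 23, against 518, 48.1, 125 and 359.5 CPM in WT 2, 3, 6 and 9. WT 2 and WT 9 lay above every null tumor, WT 3 and WT 6 below 4 of them, and null 7 at the bottom. Its log2 fold change of -0.98 (SE 0.75, edgeR adjusted p = 0.493) was -0.41 without WT 2 and -0.65 without null 7. Its sign was not the same in all subsets of tumors: the difference in mean log2 CPM was -3.002 for TB19 identifiers (3 and 1 tumors) and 0.43 for later ones (2 and 3 tumors), -0.94 among females (3 and 3 tumors) and 0.06 among males (2 and 1 tumors). The 9 fibroblast markers all had log2 fold changes below 0, none passing (edgeR smallest adjusted p = 0.227), and none was at 0 CPM in any tumor. Their summed level, mostly collagen mRNA, was 353 to 4485 CPM in the null group and 2116 to 9152 CPM in the WT group. Null 7 was at the bottom of that range too, and WT 2 at the top. The part of fibroblast content in the Mmp2 values was not tested.

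Mmp11, stromelysin 3, which is activated by furin inside the cell, was the steadiest member, spanning a 2.90-fold range over all 9 tumors. It had 13.3, 23.4, 23.8, 23.2 and 27.7 CPM in null 7, 14, 15, 18 and 23, against 34.6, 11.9, 17.6 and 25.65 CPM in WT 2, 3, 6 and 9. Null 7 and WT 3 were again the low tumors. The log2 fold change was -0.01 (SE 0.33, edgeR adjusted p = 0.991), with a 95% confidence interval of 0.603-fold to 1.64-fold. It was 0.15 without null 7, -0.18 without WT 3 and 0.28 without WT 2. Mmp11 shares 155 exonic bases with Chchd10 on the other strand (11.4 to 29.8 CPM), and the sources used here do not say if the library kit was stranded.

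Among the inhibitors, Timp1, a secreted TIMP that binds proMMP9, had the lowest log2 fold change of the 3, which did not pass. It had 67.4, 456, 185, 211 and 258 CPM in null 7, 14, 15, 18 and 23, against 235, 554, 318 and 466 CPM in WT 2, 3, 6 and 9. In the null group 4 tumors lay below 3 of the 4 WT tumors, and null 14 was the exception. Its log2 fold change of -0.74 (SE 0.46, edgeR adjusted p = 0.402) was -1.12 without null 14 (adjusted p = 0.317), -0.49 without WT 3 and -0.25 without both WT 3 and null 7. The difference in mean log2 CPM was below 0 in both identifier ranges (-0.40 and -0.90) and in both sexes (-0.23 among females and -2.22 among males). Timp1 lies on the X chromosome (20870166 to 20874735) inside Syn1, with which it shares no exonic base.

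Timp2, which is needed together with Mmp14 to activate proMMP2, did not set the groups apart. It had 242, 221, 589, 388 and 392 CPM in null 7, 14, 15, 18 and 23, against 692, 173, 231 and 384 CPM in WT 2, 3, 6 and 9 (log2 fold change -0.01, SE 0.43, edgeR adjusted p = 0.989). The highest and the lowest tumor both belonged to the WT group. The log2 fold change of Timp2 was 0.13 without null 7, -0.21 without WT 3 and 0.48 without WT 2. Timp3, which stays bound to the matrix and also inhibits ADAM and ADAMTS proteases, had 32.5, 219.6, 373, 329 and 503 CPM in null 7, 14, 15, 18 and 23, against 524, 103, 322 and 578 CPM in WT 2, 3, 6 and 9. Null 7 and WT 3 were the low tumors, and the log2 fold change was -0.39 (SE 0.66, edgeR adjusted p = 0.768). It was -0.07 without null 7, -0.67 without WT 3 and -0.38 without both. The difference in mean log2 CPM of Timp3 was -1.92 for TB19 identifiers and 0.61 for later ones, -0.41 among females and 0.01 among males. Timp3 lies inside Syn3 on the other strand and shares 1733 exonic bases with it, but Syn3 stayed at or below 2.08 CPM in all tumors.

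Levels of different members were compared as CPM per kilobase of the longest annotated transcript. Timp1 ranked first in both groups, with 267 ± 161 CPM per kb in the null group and 445 ± 162 CPM per kb in the WT group (SD, n = 5 and 4). In the null group Mmp14 followed with 135 ± 42.6, then Timp2 (98.8), Mmp7 (74.3), Timp3 (61.7), Mmp13 (55.2), Mmp2 (43.25), Mmp9 (15.2), Mmp11 (9.74) and Mmp3 (5.47), all as mean CPM per kb. In the WT group Mmp7 came second with 438 ± 601 CPM per kb, ahead of Mmp14 (145), Timp2 (99.8), Mmp2 (85.35), Mmp13 (82.9), Timp3 (80.8), Mmp9 (47.95), Mmp11 (9.81) and Mmp3 (6.04). The mean ± SD ranges of neighbours in these orders overlapped, apart from Mmp9 and Mmp11 in the WT group. With the union of exons as length Mmp14 ranked 4 in the null group and 5 in the WT group.

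The make-up of MMP mRNA differed from tumor to tumor. With the longest transcript as length, Mmp14 gave the largest share in null 7, 15, 18 and 23, from 40.65% to 59.1% of the summed CPM per kb of the 7 MMPs, and in WT 6 and WT 9 (55.4% and 34.4%). Mmp13 gave the largest share in null 14 (41.5%), and Mmp7 in WT 3 (75.6%) and WT 2 (40.05%). With the union of exons as length, Mmp7 gave the largest share in null 15 and null 23 (40.2% and 41.5%) and Mmp2 in WT 9 (29.4%), and the leading gene of the other 6 tumors did not change. The summed TIMP level was 1.08 to 1.465 times the summed MMP level in the null group and 0.400 to 2.01 times in the WT group, with WT 3 and WT 2 below 1 under either length. These ratios compare mRNA and not active enzyme.

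**Figure D3:**
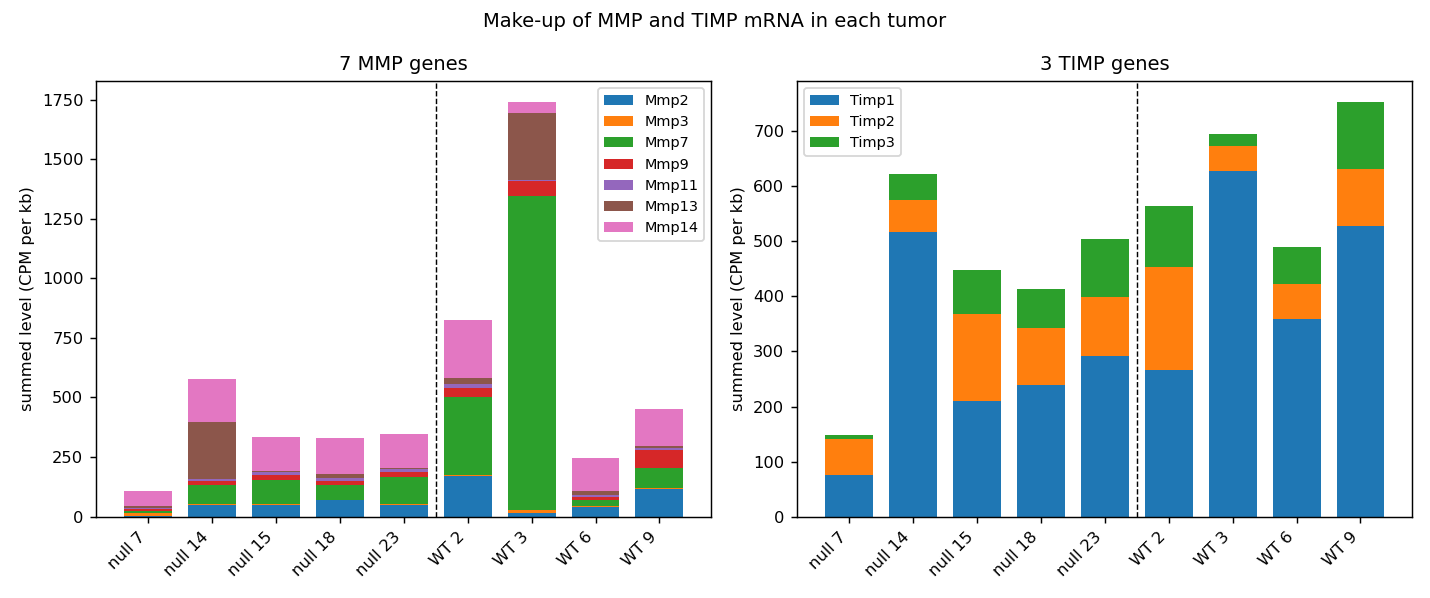
Summed CPM per kb of longest transcript of the 7 MMP genes (left) and the 3 TIMP genes (right) in each tumor, Scrib null tumors left of the dashed line and Scrib WT tumors right of it, stacked by gene. WT 3 stands out through Mmp7, null 14 through Mmp13, and null 7 has the least of both families.

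Ratios between a protease and an inhibitor in the same tumor do not depend on library scaling, and 4 were tested on log2 estimated counts. Mmp9 to Timp1 averaged -2.16 ± 0.68 in the null group and -1.54 ± 0.865 in the WT group, a difference of -0.62 (p = 0.270 by a two-sided exact permutation test, and 0.540 after adjustment for the 4 ratios). Mmp2 to Timp2 averaged -1.84 ± 1.49 in the null group and -0.81 ± 0.76 in the WT group (difference -1.03, exact permutation p = 0.238, adjusted p = 0.540). Null 7 was lowest at -4.32, the other null tumors lay between -1.97 and -0.57, and the difference was -0.40 without null 7. It was -1.87 for TB19 identifiers and -0.22 for later ones. The ratios of Mmp14 to Timp2 and of Mmp13 to Timp1 differed by -0.06 and -0.15 (both adjusted p = 0.968, exact permutation test). None of the 4 differences passed, and the groups overlapped for all of them. With 5 and 4 tumors this exact permutation test cannot go below p = 0.00794.

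Across the 9 tumors the members did not move as one block. Of 45 member pairs, 5 had a Pearson correlation of log2 CPM that passed adjustment over the pairs (exact pairings permutation), and all 5 were among Mmp2, Mmp11, Mmp14 and Timp3. Mmp2 and Timp3 had r = 0.945 (permutation p = 0.000796, adjusted p = 0.0179) and rho = 0.833 (permutation p = 0.00827, adjusted p = 0.124), with r = 0.862 without the 2 tumors farthest from the median of Mmp2. Mmp11 and Mmp14 had r = 0.933 (permutation p = 0.000694, adjusted p = 0.0179) and rho = 0.75 (permutation p = 0.0255, adjusted p = 0.164), with r = 0.73 without the 2 farthest tumors. The other 3 passing pairs were Mmp2 with Mmp11, Mmp2 with Mmp14 and Mmp11 with Timp3, with r from 0.841 to 0.864 and adjusted permutation p of 0.0358, 0.0474 and 0.0474. None of the 45 passed by Spearman's rho (smallest adjusted p = 0.0693). Mmp3 had negative r with each of Mmp2, Mmp14 and Timp3, from -0.682 to -0.669, none of which passed (adjusted permutation p = 0.159, 0.159 and 0.172).

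Of 70 relations between a member and a summed marker level, 2 passed by both r and rho. Mmp2 rose with the fibroblast sum (r = 0.977, permutation p = 6.89e-05, adjusted p = 0.00482; rho = 0.983, permutation p = 4.96e-05, adjusted p = 0.00347), and r was 0.929 without the 2 farthest tumors. Timp1 rose with the endothelial sum (r = 0.951, permutation p = 0.000518, adjusted p = 0.0181; rho = 0.967, permutation p = 0.000165, adjusted p = 0.00577), and r was 0.875 without the 2 farthest. After the group means were removed these r values were 0.978 and 0.94. Timp3 with the fibroblast sum passed by r alone (r = 0.932, permutation p = 0.000805, adjusted p = 0.0188; rho = 0.85, permutation p = 0.00607, adjusted p = 0.106), with r = 0.773 without the 2 farthest tumors. Mmp9 passed with no list. It had r = 0.831 with the endothelial sum (permutation p = 0.00461, adjusted p = 0.0807; rho = 0.567, permutation p = 0.121, adjusted p = 0.529) and r = 0.788 with the macrophage sum (permutation p = 0.0132, adjusted p = 0.132; rho = 0.717, permutation p = 0.0369, adjusted p = 0.323). Without the 2 farthest tumors these r values were 0.513 and 0.954, and after the group means were removed they were 0.705 and 0.591. With the T cell, fibroblast and neutrophil sums r was 0.693, 0.664 and 0.644 (adjusted permutation p = 0.256, 0.286 and 0.309). With the tumor epithelium sum r was 0.557 (adjusted permutation p = 0.339), and 0.777 after the group means were removed. The 7 endothelial markers all had log2 fold changes below 0, none passing (edgeR smallest adjusted p = 0.201), and summed to 46.5 to 224 CPM in the null group and 202.5 to 440.1 CPM in the WT group. Each pair of values comes from one library, so depth and scaling are shared.

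**Figure D4:**
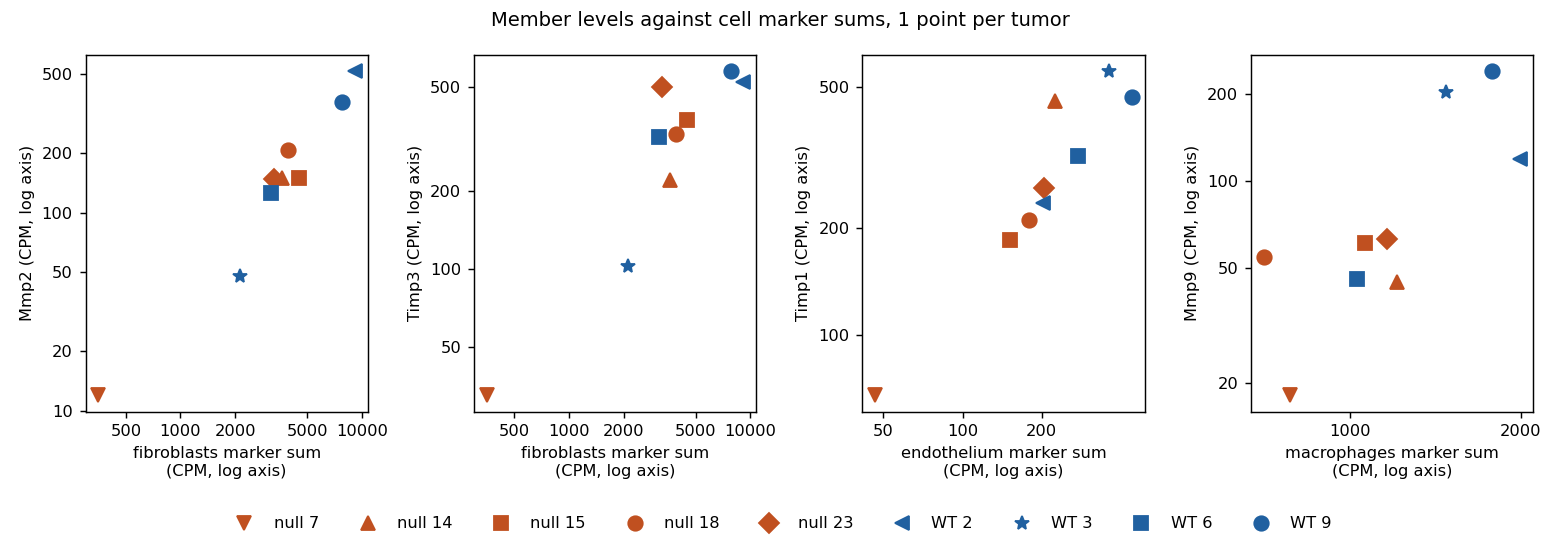
CPM of 4 members (vertical log axes) against the summed CPM of cell marker lists (horizontal log axes), 1 point per tumor, Scrib null in orange and Scrib WT in blue. Mmp2 follows the fibroblast sum over all 9 tumors (r = 0.977), while the relation of Mmp9 to the macrophage sum is looser (r = 0.788).

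The genes with the pattern most like a member were taken as the 2 with the highest Pearson r of log2 CPM over the 9 tumors among the genes tested, as a description. For Mmp2 they were Kif26b (r = 0.99) and Cpxm2 (0.989), and for Timp3 they were Tnfrsf19 (0.984) and Axin2 (0.983). Mmp7 was closest to Birc3 (0.981) and Adgra1 (0.961), Mmp9 to Snap29 (0.983) and Arhgap25 (0.979), and Mmp11 to Ahi1 (0.981) and Ntng2 (0.976). Mmp14 was closest to Egr3 (0.971) and Reg3b (0.969), Timp1 to Trabd (0.967) and Acsl3 (0.966), and Timp2 to Kank2 and Adgrb2 (both 0.948). The closest genes were less alike for Mmp3 (Pcx at 0.954 and Grpel2 at 0.906) and Mmp13 (Prdx5 at 0.902 and Blcap at 0.882). Birc3 encodes an inhibitor of apoptosis, Axin2 a feedback inhibitor of Wnt signalling and Egr3 an immediate early transcription factor. All these genes were picked for the highest r among many genes over only 9 tumors. Such a choice alone can give a high r, and no shared regulation was tested.

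The remaining MMP genes and Timp4 formed a list of 17, of which 10 had enough counts to be tested. None passed in either direction (edgeR smallest adjusted p = 0.201). Below 0 were 9 of the 10, beside 52.2% of all genes, and their median log2 fold change was -0.67, beside -0.03 for all genes. At an unadjusted edgeR p under 0.05 there were 2, both lower, where 10% of all genes were lower and 7.64% higher. Mmp23 had 5.10, 16.2, 23.8, 10.2 and 15.2 CPM in null 7, 14, 15, 18 and 23, against 39.0, 37.1, 26.9 and 77.4 CPM in WT 2, 3, 6 and 9, with no overlap (log2 fold change -1.67, SE 0.43, edgeR adjusted p = 0.201). Of all genes tested, 3.49% were likewise lower in the null group without overlap. Mmp12 averaged 66.3 ± 36.7 CPM in the null group and 138.9 ± 59.8 CPM in the WT group (log2 fold change -1.07, edgeR adjusted p = 0.247). The log2 fold changes of Mmp28, epilysin, and Mmp8 were -1.65 and -1.31 (edgeR adjusted p = 0.298 and 0.322).

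Genes that activate or restrain MMPs were a list of 20, of which 19 were tested and 0 passed. Of these, 6 were above and 13 below 0 (median log2 fold change -0.36), beside 52.2% of all genes below 0. At an unadjusted edgeR p under 0.05, 1 was higher and 2 were lower, where 7.64% of all genes were higher and 10% lower. Pcsk6, a furin-like convertase, averaged 95.7 ± 57.7 CPM in the null group and 45.4 ± 21.45 CPM in the WT group (log2 fold change 1.07, edgeR adjusted p = 0.271), with 196 CPM in null 7. Sparc, a matricellular protein, averaged 915 ± 435 CPM in the null group and 2046 ± 574 CPM in the WT group with no overlap (log2 fold change -1.16, edgeR adjusted p = 0.261). Over all genes tested, 3.49% were lower in the null group without overlap. Tfpi2, a secreted serine protease inhibitor, and A2m, a plasma protein that traps proteases, had log2 fold changes of -1.24 and -1.76 (edgeR adjusted p = 0.278 and 0.302).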

How the data were processed

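The deposited table holds estimated counts per Ensembl gene, 1 column per tumor, not normalized by the authors. Salmon 1.4.0, DESeq 2 and the builds GRCm38 and mm10 are named, per the submitters' processing notes. The sources used here name no annotation release. All 9 columns were used, and 54131 of 54453 rows were given a symbol (GENCODE M21).

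Estimated counts were rounded to whole numbers. Genes were filtered with filterByExpr (minimum count 10, minimum total 15) and tested with edgeR 4.0.16's quasi-likelihood test (TMM scaling, no covariate, R 4.3.3), with Benjamini-Hochberg adjustment over 16169 genes and a threshold of 0.05. CPM used TMM-scaled libraries, and log2 CPM a prior count of 2. Each log2 fold change was divided by the square root of its F for an SE. Ratios used estimated counts plus 2. Correlations and ratios were tested by exact two-sided permutation. DESeq2 1.42.0 and limma-voom 3.58.1 were alternatives, with other scalings, filters, covariates and left-out tumors. Totals ran from 10145830 to 27596832, and the common biological coefficient of variation was 0.494, so that tumors differed by more than counting error.

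The members, gene lists, markers and the 2 tumors left out together were chosen with earlier results of these data known. The genes named were Scrib, the members, the 2 genes most like each member (no Gm, Rik, identifier or pseudogene names) and up to 4 genes with the smallest p per related list. Summed levels of the T cell markers (7 genes) were 2.67 to 7.87 CPM in the null group and 4.78 to 10.8 CPM in the WT group.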

Additional observations from a re-analysis of the deposited data

Results flagged for a closer look

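A single tumor lay far from the rest of its group in 8 of 42 checks (21 values in 2 groups). For independent, normally distributed values such a gap arises by chance in about 1 check in 20. Most of these values were CPM on a linear scale, and many shared tumors and genes, so that rate was not measured for them. Mmp13 was set apart in both groups, at 640.5 CPM in null 14 against 11.7 to 48.0 CPM in the other null tumors, and at 746.5 CPM in WT 3, where the remaining WT tumors had 21.6 to 72.7 CPM. Mmp3 had 21.65 CPM in WT 3 and 6.51 to 7.74 CPM in the other WT tumors. The log2 ratio of Mmp9 to Timp1 was -3.346 in null 14 and -2.035 to -1.597 in the other null tumors. The neutrophil marker sum was 594.1 CPM in null 15 against 85.3 to 218 CPM in the other null tumors, and 2806 CPM in WT 3, where the remaining WT tumors had 197 to 313 CPM. The acinar marker sum was 226.9 CPM in null 15 against 7.1 to 67.5 CPM in the other null tumors, and 254 CPM in WT 6, where the remaining WT tumors had 18.05 to 35.9 CPM.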

How the results depend on the processing

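No paired analysis was possible because the groups share no replicate number. Among all genes 0 were called higher and 2 lower. These counts were 212 and 413 with DESeq2, 1 and 6 without a filter, 1 and 1 with limma-voom, 0 and 1 with a sex covariate, 0 and 0 with an identifier covariate and without both WT 3 and null 7, and 0 and 0 to 1 with each tumor left out. Over 18 alternatives Mmp9 was called in 1, DESeq2 (log2 fold change -1.66, adjusted p = 0.0363; other alternatives 0.140 to 0.434), and the other 9 members in none. Mmp2, Mmp7, Mmp9, Timp1 and Timp3 stayed below 0 in all 18 fits, though within identifier ranges and sexes the differences of Mmp2, Mmp7 and Timp3 did not keep 1 sign. With each tumor left out the log2 fold change ran from -0.61 to 0.47 for Mmp3, -0.18 to 0.28 for Mmp11, -3.19 to 1.71 for Mmp13, -0.35 to 0.26 for Mmp14 and -0.25 to 0.48 for Timp2. Signs turned for Mmp11 and Timp2 with total counts only (0.0414 and 0.035), no filter (0.0459 and 0.0466), DESeq2 (0.007 and 0.0059), limma-voom (0.0814 and 0.0672) and the sex covariate (0.14 and 0.16). Mmp14 turned with limma-voom (0.0394) and sex (0.18), Mmp13 with sex (0.29), and Mmp3 and Mmp13 without both WT 3 and null 7 (0.0058 and 1.98). The cause was not tested. The ratio of Mmp13 to Timp1 turned without both tumors (0.52), within TB19 identifiers (0.0178) and among females (0.41). With each tumor left out it ran from -0.92 to 0.70. That of Mmp14 to Timp2 turned within TB19 identifiers (0.11) and among males (0.20), and ran from -0.34 to 0.13. Those of Mmp2 to Timp2 and Mmp9 to Timp1 stayed below 0, from -1.37 to -0.40 and from -1.04 to -0.32 with each tumor left out and from -1.87 to -0.22 and from -1.30 to -0.26 over all alternatives. All members had at least 76.2 estimated counts in every tumor, so counting error was small beside the spread between tumors.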

Other observations

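Of 19 ADAM and ADAMTS proteases, relatives of the MMPs that shed surface proteins or cut proteoglycans, all were tested and 0 passed in edgeR (2 at an unadjusted p under 0.05, both lower). Of all genes 10% were lower and 7.64% higher at that unadjusted p. Their log2 fold changes, those of the 19 proteases, were below 0 for 15 and above 0 for 4, beside 52.2% of all genes below 0. The median was -0.36, beside -0.03 for all genes. Adam28 averaged 5.36 ± 3.25 CPM in the null group and 24.3 ± 23.0 CPM in the WT group (log2 fold change -2.18, edgeR adjusted p = 0.256). Adamts1 averaged 87.0 ± 41.3 CPM in the null group and 48.0 ± 19.8 CPM in the WT group (log2 fold change 0.86, edgeR adjusted p = 0.316). Adamts15 and Adamts10 had log2 fold changes of -1.91 and -0.64 (edgeR adjusted p = 0.259 and 0.325).

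Of 15 cytokines and growth factors known to induce MMPs, 0 passed in edgeR. Here 6 were above and 9 below 0, beside 52.2% of all genes below 0, and the median log2 fold change was -0.04. At an unadjusted edgeR p under 0.05, 1 was higher and 1 lower, where 7.64% of all genes were higher and 10% lower. Tgfa, a ligand of the EGF receptor, averaged 115 ± 35.9 CPM in the null group and 55.0 ± 13.5 CPM in the WT group (log2 fold change 1.06, SE 0.28, edgeR adjusted p = 0.201), higher in 4 of the 5 null tumors than in any WT tumor. Hgf, a growth factor made by mesenchymal cells, had 0.101 to 0.894 CPM in the null group and 1.03 to 2.73 CPM in the WT group, without overlap (log2 fold change -1.40, edgeR adjusted p = 0.251). Lower values without overlap were found for 3.49% of all genes tested. Il1b, an inflammatory cytokine, was at 14.4 to 86.3 CPM in the null group, at 234 CPM in WT 3 and at 29.1 to 30.8 CPM in the other WT tumors (log2 fold change -0.88, edgeR adjusted p = 0.524). Tnf, another such cytokine, was at 5.25 to 10.9 CPM in the null group, 37.4 CPM in WT 3 and 7.54 to 11.65 CPM in the other WT tumors (log2 fold change -1.04, edgeR adjusted p = 0.283). A link between any of these cytokines and the levels of the members was not tested.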
